A study of Mus musculus with 6 samples.

Results

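Neutrophil chemokines and acute cytokines are the secreted signals that call neutrophils into inflamed tissue and release them from the bone marrow. The 10 genes described here were chosen by symbol from a table of 57180 genes: the CXC chemokine genes Cxcl1, Cxcl2, Cxcl3, Cxcl5 and Cxcl15, the interleukin genes Il1a, Il1b and Il6, and the colony-stimulating factor genes Csf2 and Csf3. Each symbol stood in 1 row, so all 10 were found. 7 of them had enough counts to be tested, and Cxcl3, Il6 and Csf3 did not.

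Polyadenylated RNA was measured in mouse lung, in 3 wild-type samples (genotype WT) and 3 samples overexpressing the RNA demethylase FTO (genotype FTO_OE). All 6 samples came from mice exposed to cigarette smoke in a model of chronic obstructive pulmonary disease, and the comparison asks which transcripts differ when FTO is overexpressed during the exposure. Without unexposed lungs, which were not analysed here, an effect of the smoke itself could not be read. The sources used here do not state how or in which cells FTO was overexpressed, nor the strain, age and sex of the animals. They do not say whether the libraries are from different mice either, so p-values measure only the spread between these samples, which may be technical.

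These proteins work in a relay. IL-1 alpha and IL-1 beta act on the receptor IL1R1 of epithelium, endothelium and stroma and switch on NF-kB, which drives transcription of the CXC chemokines, IL-6 and the colony-stimulating factors. The CXC chemokines bind CXCR2 on neutrophils, granulocyte colony-stimulating factor (G-CSF, from Csf3) drives neutrophil production, and granulocyte-macrophage colony-stimulating factor (GM-CSF, from Csf2) maintains alveolar macrophages. Cxcl15, also called lungkine, is a chemokine of lung epithelium.

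The libraries held 16731850 to 21444907 counts, so 1 count was worth 0.0461 to 0.0569 CPM, the count per 1e6 counts of the library, after scaling. Levels below are these TMM-normalised CPM, and ratios are fitted by edgeR with 95% intervals, FTO-overexpressing over wild type. Fto was at 66.2 to 69.9 CPM in the wild-type and 650.1 to 740.8 CPM in the overexpressing libraries, as their labels call for. The epithelial genes Sftpc (11480 to 15070 CPM) and Scgb1a1 (18340 to 30340 CPM) were abundant in every library, which fits the labelled tissue. The background is sparse: edgeR called 16 of 16989 genes at an adjusted p of 0.05, which is 0.0942%.

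None of the 7 tested chemokine and cytokine genes passed that threshold. With edgeR, 0 of 7 had an unadjusted p under 0.05, where 9.44% of all tested genes did (5.77% higher and 3.67% lower). limma-voom also called 0 of 7, and DESeq2 called 0 of the genes and gave 1 of them, Cxcl15, an unadjusted p of 0.0263. In 0 of the 10 genes did the CPM of the 2 groups separate without overlap, which happened for 14.8% of all genes tested. The median log2 fold change of the 7 was -0.26, beside 0.007 over all genes tested, with 6 of 7 values below 0. Leaving out wild-type replicate 1 gave a median of -0.093 over 8 genes, with Cxcl3 (-1.338) added, which then had enough counts. Leaving out overexpressing replicate 3 gave -0.048 over 9 genes, with Cxcl3 (-0.949) and Il6 (-0.175) added. Neither median is over the same 7 genes, but the added values lay below these medians. The move towards 0 therefore came from the 7 genes. Without wild-type replicate 1, Cxcl2 (0.18) and Il1b (0.81) were the only ones of the 7 to change sign. Without overexpressing replicate 3, Cxcl1 (0.026), Cxcl5 (0.013) and Il1a (0.12) turned above 0 and Csf2 (-0.008) below it.

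**Figure D1:**
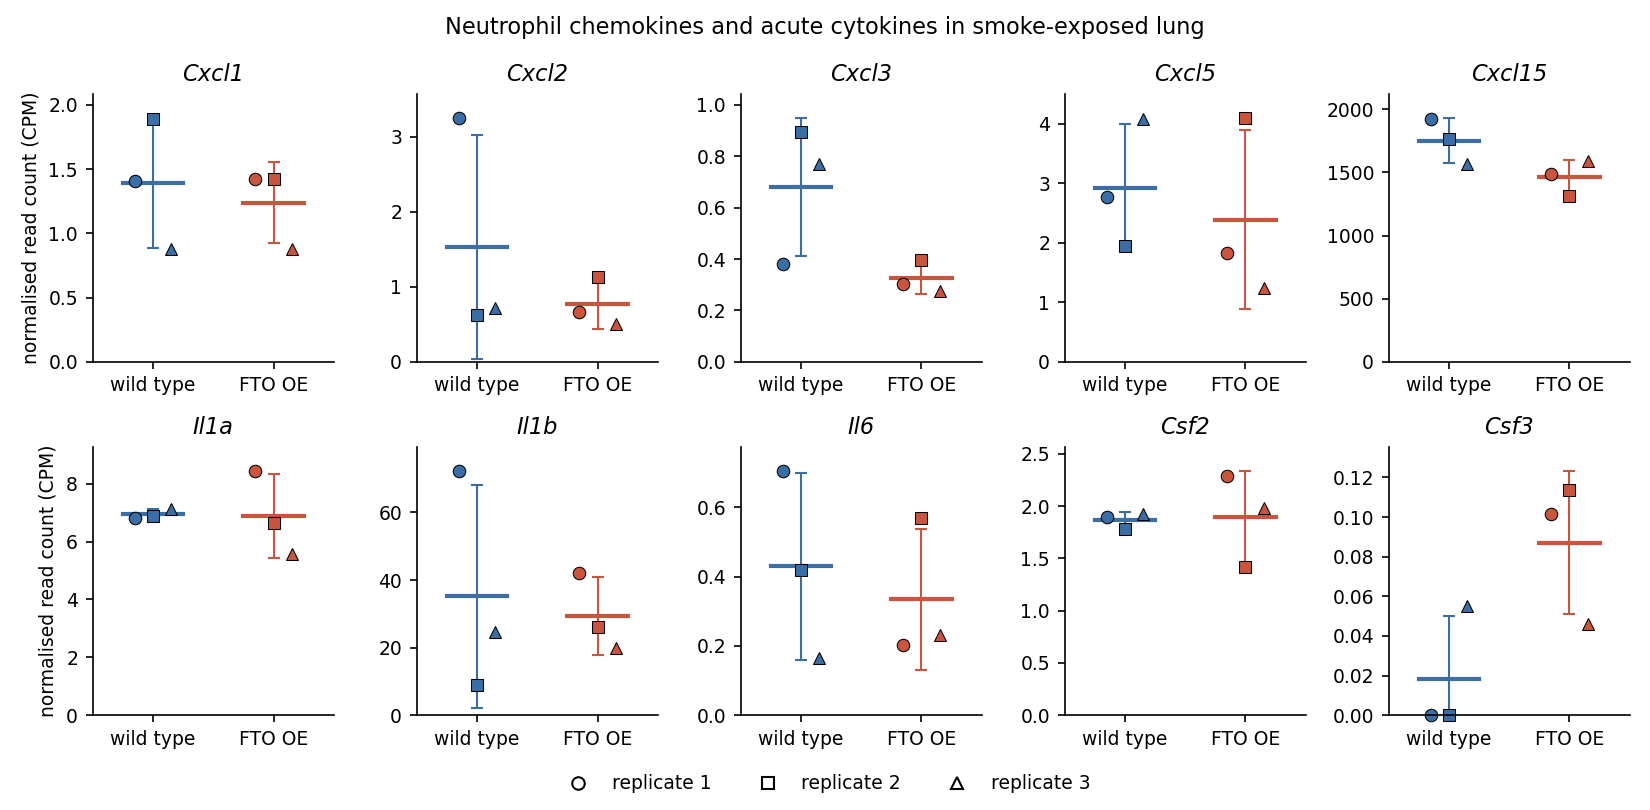
Normalised read count (CPM, linear axes from 0, 1 scale per gene) of each of the 10 genes in 3 wild-type and 3 FTO-overexpressing (FTO OE) libraries of smoke-exposed lung. Symbols are replicates, bars the mean and whiskers the SD. The groups overlap in every panel, and wild-type replicate 1 stands above the other 5 libraries for Cxcl2 and Il1b.

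The CXC chemokine genes lie side by side on mouse chromosome 5, in the order Cxcl5, Ppbp, Pf4, Cxcl3, Cxcl15, Cxcl1 and Cxcl2. Cxcl1, Cxcl2 and Cxcl3 are close relatives, while Cxcl15 is a chemokine of lung epithelium. Upstream sequences are shown because the 3 relatives share a run of letters that Cxcl15 lacks. The stretches are the 120 bases that end at the base before the RefSeq start of each gene (GRCm38.p6, plus strand, 5′ to 3′): chr5:90891125-90891244 for Cxcl1, chr5:90903779-90903898 for Cxcl2, chr5:90785981-90786100 for Cxcl3, chr5:90794414-90794533 for Cxcl15 and chr5:30012994-30013113 for Il6. Capitals mark every match, on either strand, to GGGNNNTTCC, a spacing used by NF-kB sites; neighbouring matches overlap.
Cxcl1: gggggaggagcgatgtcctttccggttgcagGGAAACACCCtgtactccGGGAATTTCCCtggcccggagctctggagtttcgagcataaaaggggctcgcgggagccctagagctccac
Cxcl2: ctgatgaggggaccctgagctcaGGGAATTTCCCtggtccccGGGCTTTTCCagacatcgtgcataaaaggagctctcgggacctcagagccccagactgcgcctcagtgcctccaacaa
Cxcl3: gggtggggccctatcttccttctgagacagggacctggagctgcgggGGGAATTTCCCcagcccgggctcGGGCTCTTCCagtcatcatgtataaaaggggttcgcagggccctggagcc
Cxcl15: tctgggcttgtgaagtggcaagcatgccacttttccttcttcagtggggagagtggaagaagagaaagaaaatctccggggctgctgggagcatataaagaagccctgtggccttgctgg
Il6: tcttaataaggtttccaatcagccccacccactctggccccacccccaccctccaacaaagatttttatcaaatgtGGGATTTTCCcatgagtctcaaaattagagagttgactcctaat

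The run GGGAATTTCCC was present in the stretches of Cxcl1, Cxcl2 and Cxcl3. Of the 8 genes in the promoter table, the windows of 4, Cxcl1, Cxcl2, Cxcl3 and Il6, held GGGNNNTTCC within 300 bases, and those of Cxcl15, Il1a, Il1b and Csf2 did not. In the table as a whole, 5.56% of 32851 windows of this length held it. This motif was chosen after the sequences were seen. The motif set earlier, GGGNNTTCC, which is 1 base shorter, was in 0 of the 8 genes and in 5.82% of all windows. A match is a string of letters and not a measured binding site.

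Cxcl15 was by far the most abundant of the 10. It was measured at 1925, 1764 and 1566 CPM in wild-type replicates 1, 2 and 3 and at 1484, 1313 and 1588 CPM in the overexpressing ones. Overexpressing replicate 3 lay just above the lowest wild-type library, so the groups overlapped by that 1 pair. The means were 1752 ± 180 and 1461 ± 139 CPM (SD, n = 3 each), a ratio of 0.834 (95% interval 0.679 to 1.02, with an adjusted p of 0.604 by edgeR). This was the narrowest interval among the 7 tested genes. The log2 fold change of -0.26 stayed below 0 in all 14 alternatives, between -0.34 and -0.18.

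Markers of secretory epithelium had a median of the same size. Over 12 markers of alveolar type 2 and club cells the median log2 fold change was -0.26, with 10 of 12 values below 0 and 0 past the threshold. Their summed level was 49420 to 54690 CPM in wild-type and 39370 to 47140 CPM in overexpressing libraries, without overlap. Most of it came from Scgb1a1 and Sftpc, and each of these overlapped between the groups. Scgb1a1 was at 23820 CPM in wild-type replicate 2 and 24380 CPM in overexpressing replicate 1. Sftpc was at 13840 CPM in wild-type replicate 2 and 14160 CPM in overexpressing replicate 3. The smallest p were those of Sftpd, a surfactant protein gene, with a log2 fold change of -0.43 ± 0.11 (SE), the lipid transporter gene Abca3 at -0.29 ± 0.077, the lysozyme gene Lyz1 at -0.61 ± 0.16 and the surfactant protein gene Sftpa1 at -0.34 ± 0.12, with edgeR adjusted p of 0.228 to 0.438. DESeq2 called these 4, with adjusted p of 0.0112 to 0.0338. With edgeR, 6 of 12 had an unadjusted p under 0.05 (9.44% of all genes did), 5 lower and 1 higher. In 7 of 12 the groups did not overlap (14.8% of all genes). The 2 markers above 0, named after their values were seen, were Scgb3a2 at 0.50 ± 0.193 and Scgb3a1 at 1.72 ± 1.03 (SE), with overlapping groups. In bulk tissue, fewer cells of a type and less RNA per cell cannot be told apart, and the part of the epithelial markers in the Cxcl15 values was not tested.

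The genes whose levels ran most like Cxcl15 over the 6 libraries were Dram1, Phospho2 and Neu3, out of 13463 genes compared. Dram1, a lysosomal membrane gene linked to autophagy, differed from Cxcl15 by a mean of 0.0152 log2 units after each gene was centred on its own mean. For Phospho2, a phosphatase gene, that distance was 0.0246, and for Neu3, a sialidase gene, 0.0361. Dram1 was at 326.7, 289.9 and 265.1 CPM in wild-type and at 249.1, 221.7 and 262.9 CPM in overexpressing libraries, the same order of libraries as Cxcl15 except in the lowest wild-type library, which was just above overexpressing replicate 3. With 6 libraries and so many genes compared, close matches of this kind describe these libraries only.

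The inducible chemokines were near the lower limit of what could be measured. Cxcl1 was counted 26, 36 and 16 times in the wild-type and 28, 25 and 19 times in the overexpressing libraries, which is 1.39 ± 0.506 against 1.24 ± 0.315 CPM (SD, n = 3 each). The groups covered the same range, and the ratio was 0.886 (95% interval 0.485 to 1.62, with an adjusted p of 0.940 by edgeR). The interval includes differences in either direction.

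Cxcl2 had 1 library far above the rest. Wild-type replicate 1 held 60 counts (3.25 CPM), 2.86 times the level of the next highest library. Cxcl2 was counted 12 and 13 times in the other two wild-type libraries, and 13, 20 and 11 times in the overexpressing ones. Without wild-type replicate 1 the wild-type mean was 0.673 CPM beside 0.768 CPM in the overexpressing libraries. The ratio over all libraries was 0.499 (95% interval 0.163 to 1.52, with an adjusted p of 0.742 by edgeR), and the log2 fold change turned from -1.004 to 0.18 without that library.

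Cxcl3 showed a different set of high libraries. It was counted 7, 17 and 14 times in wild-type and 6, 7 and 6 times in overexpressing libraries, or 0.681 ± 0.268 against 0.327 ± 0.0635 CPM (SD, n = 3 each). The libraries with high Cxcl3 were wild-type replicates 2 and 3, and replicate 1, which was high for Cxcl2, fell within the range of the overexpressing libraries. A 2-sided exact permutation test of the CPM gave p = 0.2, where 3 samples against 3 cannot go below 0.1. In an edgeR fit with no filter on low counts the log2 fold change was -1.05 (adjusted p = 0.801), and without wild-type replicate 1 it was -1.34 (adjusted p = 0.288).

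Cxcl5, whose product is made by epithelium and platelets, also varied within both groups. It was at 2.76, 1.94 and 4.07 CPM in the wild-type and 1.83, 4.09 and 1.25 CPM in the overexpressing libraries. The highest library of each group was more than 2-fold above the lowest (2.09-fold and 3.29-fold), and the groups overlapped. The ratio was 0.811 (95% interval 0.378 to 1.74, with an adjusted p of 0.908 by edgeR). On the log2 scale it was -0.93 when overexpressing replicate 2 was left out and 0.013 when replicate 3 of that group was.

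The neighbouring genes Il1a and Il1b, which lie next to each other on chromosome 2, differed in their spread among wild-type libraries. Il1a was at 6.83, 6.88 and 7.14 CPM in wild-type and at 8.43, 6.63 and 5.57 CPM in overexpressing libraries. The wild-type libraries lay inside the range of the overexpressing ones, and the ratio was 0.990 (95% interval 0.732 to 1.34, with an adjusted p of 0.991 by edgeR). Il1b was at 72.2, 8.88 and 24.6 CPM in wild-type and at 42.1, 26.0 and 19.7 CPM in overexpressing libraries. Its highest and lowest libraries were both wild type, 8.14-fold apart, against 1.05-fold for Il1a in the same libraries. The coefficient of variation among wild-type libraries was 93.6% for Il1b and 2.42% for Il1a, beside a median of 11.1% over all genes tested. The Il1a value is below the 8.81% that counting error alone gives at its mean count. Among overexpressing libraries the contrast was smaller, 39.4% for Il1b and 21.0% for Il1a.

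The Il1b comparison turned on wild-type replicate 1. Over all libraries the means were 35.2 ± 33.0 and 29.3 ± 11.5 CPM (SD, n = 3 each), a ratio of 0.831 (95% interval 0.291 to 2.38, with an adjusted p of 0.951 by edgeR). Without wild-type replicate 1 the log2 fold change moved from -0.27 to 0.81 (edgeR adjusted p = 0.554). The direction also depended on the tool, with 0.15 in limma-voom and -0.27 in DESeq2. Each library held 169 to 1333 counts of Il1b, so counting error is small beside the spread between libraries.

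Il1b was set beside the 15 neutrophil genes, library by library, after their values were seen. Among wild-type libraries 3 of 15 had the order of Il1b, 6 the opposite order and 6 another, and among overexpressing libraries these numbers were 1, 4 and 10. Because 3 libraries allow few orders, unrelated genes can share one, and the share over all tested genes was not counted. Csf3r, the G-CSF receptor gene, was at 89.7, 27.8 and 61.1 CPM in wild-type and 114.5, 66.5 and 53.1 CPM in overexpressing libraries, the same order within each group as Il1b. In wild-type libraries alone that order also held for Cxcr2 (65.8, 43.4 and 59.6 CPM) and Stfa2l1, a stefin gene of mature neutrophils (16.4, 4.94 and 10.2 CPM). Other genes of mature neutrophils, such as Retnlg, Mmp9 and S100a8, followed neither order. The 6 with the opposite order in wild-type libraries were Ly6g and the granule genes Camp, Elane, Ltf, Mpo and Ngp, which are made early in neutrophil development. Ngp was at 101.7, 283.4 and 120.8 CPM and Ltf, the lactoferrin gene, at 59.9, 184.9 and 91.6 CPM. It follows from these orders that, among wild-type libraries, replicate 2 had the lowest Il1b and Csf3r and the highest levels of these 6 genes.

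**Figure D2:**
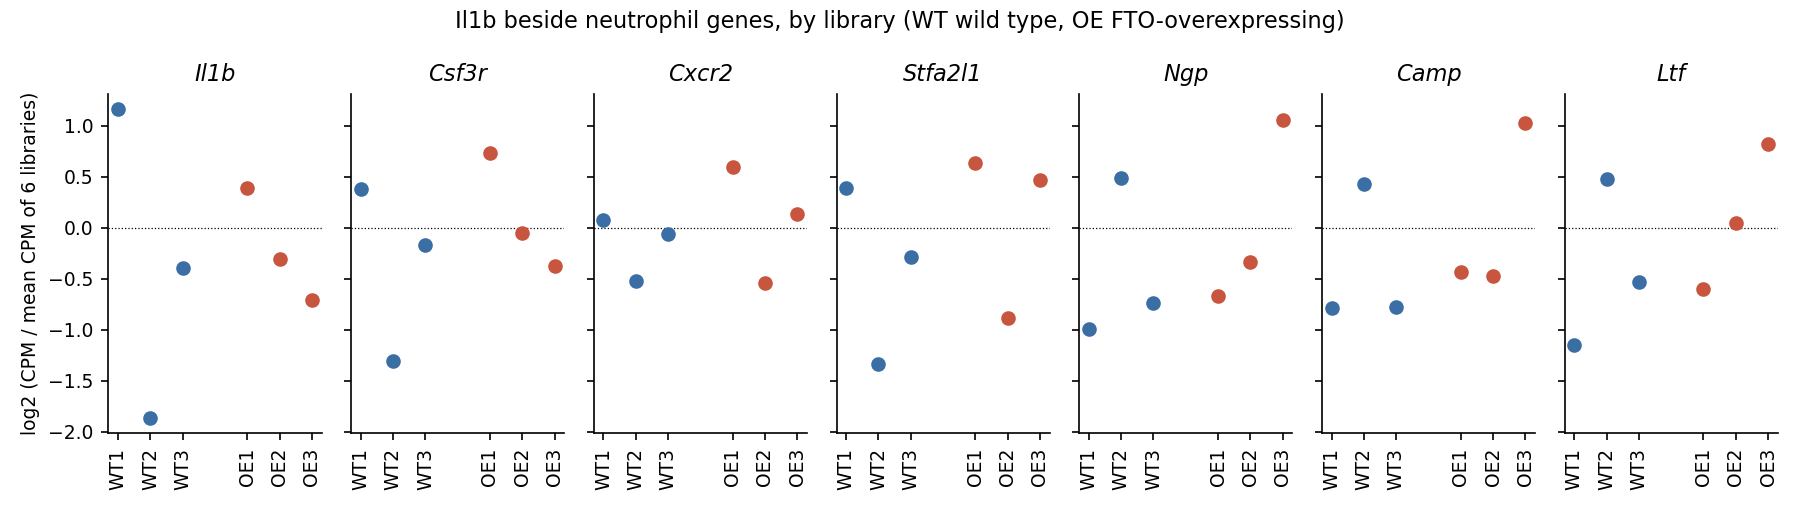
Il1b and 6 neutrophil genes in each library as log2 of CPM over the mean CPM of the 6 libraries; blue points are wild type (WT1 to WT3) and red points FTO-overexpressing (OE1 to OE3). Il1b and Csf3r share their order of libraries within each group, while Ngp, Camp and Ltf are highest in WT2 and OE3. The genes were picked after their values were seen. Neutrophil genes that followed neither the order of Il1b nor its opposite among wild-type libraries are not shown.

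All listed monocyte genes except Ace were higher in wild-type replicate 1 than in the other wild-type libraries. Nr4a1, an early response gene and marker of patrolling monocytes, was at 83.8 CPM there, at 15.6 and 11.4 CPM in the other wild-type libraries and at 20.7 to 28.8 CPM in the overexpressing ones. Plac8, a gene of monocytes and granulocytes, was at 151.2 CPM against 60.1 and 43.0 CPM, but overexpressing libraries reached 169.8 CPM. Csf1r, another listed monocyte gene, was at 180.7 CPM in wild-type replicate 1 and at 115.5 to 140.9 CPM in all other libraries. Nr4a1, Plac8 and Csf1r were named after their values were seen. Ccr2, the receptor gene of classical monocytes, was at 139.9 CPM in that library, below the 143.4 to 184.4 CPM of the overexpressing libraries, and Cx3cr1 and Ly6c2 were likewise below all 3 of them. The share of counts from haemoglobin genes in wild-type replicate 1 was 2.26%, within the range of the others (0.368% to 3.27%). The part of these cells or of blood in the Il1b and Cxcl2 values was not tested.

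Il6 was barely detected. It was counted 13, 8 and 3 times in wild-type and 4, 10 and 5 times in overexpressing libraries, or 0.430 ± 0.270 against 0.334 ± 0.204 CPM (SD, n = 3 each). The groups overlapped, with a 2-sided exact permutation p of 0.7. In the unfiltered edgeR fit the log2 fold change was -0.39 (adjusted p = 0.921). No difference in Il6 was detected with these 3 to 13 counts per library.

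Csf2 overlapped between the groups. It was at 1.90, 1.79 and 1.93 CPM in wild-type and at 2.29, 1.42 and 1.98 CPM in overexpressing libraries, from 25 to 45 counts. Overexpressing replicates 1 and 3 lay above all wild-type libraries and replicate 2 below them, and the coefficient of variation was 3.94% in wild-type and 23.1% in overexpressing libraries, where counting error alone gives 17.0% and 16.3%. The ratio was 1.02 (95% interval 0.664 to 1.56, with an adjusted p of 0.988 by edgeR). Activated T cells are one known source of GM-CSF, and T and cytotoxic cell markers were the list with the largest shift. Their summed level was 69.6 to 115 CPM in wild-type and 326 to 714 CPM in overexpressing libraries, 12 of 12 log2 fold changes were above 0 with a median of 2.02, and 2 of 12 passed over all genes, Cd8a (log2 fold change 2.81 ± 0.308 (SE), edgeR adjusted p = 0.0300) and Cd8b1 (3.10 ± 0.360, edgeR adjusted p = 0.0363). The calls of both were lost with the direction kept in limma-voom and in 5 of the 6 fits without 1 library. Both were kept in DESeq2 (adjusted p = 2.92e-23 for Cd8a and 2.83e-22 for Cd8b1). The unfiltered edgeR fit also kept them (adjusted p = 3.05e-05 and 3.66e-05). The part of T cells in the Csf2 values was not tested.

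Csf3 was at or under the limit of detection. Counts were 0, 0 and 1 in wild-type and 2, 2 and 1 in overexpressing replicates 1, 2 and 3. A count of 0 allows a level of up to 3 counts, which is 0.138 to 0.171 CPM in these libraries, and all 6 values lay below it. No fold is given for this reason. The 2-sided exact permutation p of the CPM was 0.2.

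Levels of different genes were compared per kilobase of exon, with lengths from GENCODE M21, since longer transcripts collect more counts. Averaged over the 6 libraries, Cxcl15 stood at 755.3 CPM per kb, Il1b at 16.9 and Il1a at 3.50. Cxcl15 was above Il1b, and Il1b above Il1a, in every library. Csf2 followed at 2.35, Cxcl5 at 1.43, Cxcl1 at 0.702 and Cxcl2 at 0.556 CPM per kb, and each of these overlapped its neighbour in the order over the range of libraries. Il6 (0.157), Cxcl3 (0.144) and Csf3 (0.0373 CPM per kb) were lowest, and Il6 and Cxcl3 changed places in 3 of 6 libraries. This order describes whole lung and does not separate a low level in many cells from a high level in few.

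Receptors, decoys and antagonists of these ligands did not pass the threshold either. With edgeR, 0 of 14 passed, 2 of 14 had an unadjusted p under 0.05 (9.44% of all genes did), and 3 of 14 had groups without overlap (14.8% of all genes). The median log2 fold change was 0.012. The 3 with separate groups were the IL-6 receptor gene Il6ra, its signalling partner Il6st and Sigirr, a receptor gene that restrains IL-1 family signalling. Il6ra was at 80.6, 82.1 and 82.7 CPM in wild-type and at 69.1, 56.5 and 66.7 CPM in overexpressing libraries, a ratio of 0.784 (95% interval 0.677 to 0.908, with an adjusted p of 0.239 by edgeR). Il6st was at 524.6, 560.9 and 559.1 CPM against 498.4, 450.0 and 489.8 CPM, a ratio of 0.874 (95% interval 0.763 to 1.002, with an adjusted p of 0.545 by edgeR). Sigirr was higher by value, at 14.3, 15.6 and 15.2 CPM against 16.6, 19.2 and 18.5 CPM, a ratio of 1.20 (95% interval 1.01 to 1.42, with an adjusted p of 0.487 by edgeR).

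The other receptors overlapped between groups. Cxcr2, the main neutrophil receptor for the CXC chemokines, was at 65.8, 43.4 and 59.6 CPM in wild-type and at 93.8, 42.8 and 68.6 CPM in overexpressing libraries. Its relative Cxcr1 was at 1.43 to 6.56 CPM and the chemokine-scavenging receptor gene Ackr1 at 0.440 to 1.42 CPM. The signalling IL-1 receptor Il1r1 lay between 52.1 and 66.3 CPM, its co-receptor Il1rap between 24.4 and 34.2 CPM, the decoy Il1r2 between 2.50 and 8.99 CPM and the antagonist Il1rn between 9.96 and 21.5 CPM. The GM-CSF receptor subunit genes Csf2ra (23.5 to 29.9 CPM), Csf2rb (65.7 to 90.2 CPM) and Csf2rb2 (21.0 to 29.1 CPM) also overlapped. Transcripts of the receptors for G-CSF and GM-CSF were read in every library, including those where the ligand Csf3 had 0 counts.

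**Figure D3:**
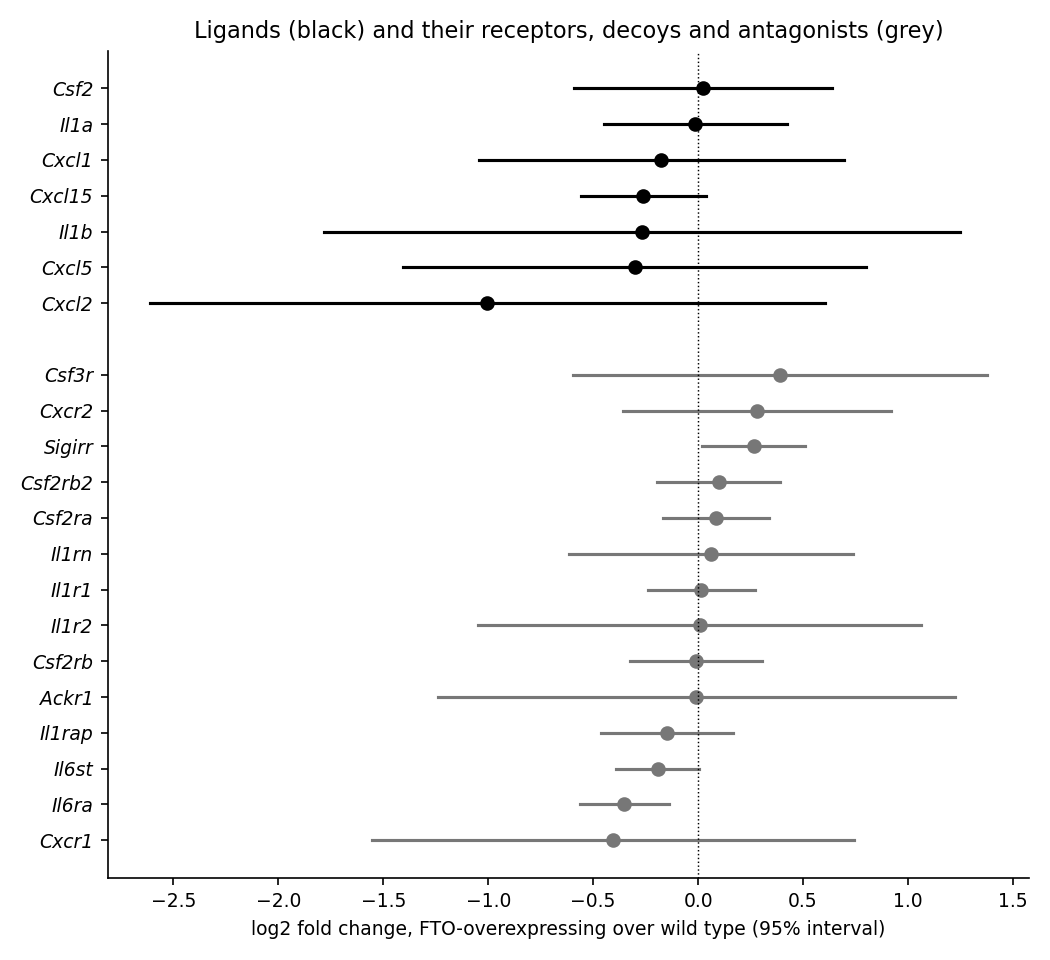
Log2 fold change (FTO-overexpressing over wild type) with its 95% interval for the 7 tested ligand genes (black) and 14 receptor, decoy and antagonist genes (grey). All 7 ligand intervals cross 0, and that of Cxcl15 is the narrowest of them.

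Inducers and feedback regulators of the relay showed 0 of 14 tested genes past the edgeR threshold, with a median log2 fold change of 0.076. 2 of 14 had an unadjusted p under 0.05 (9.44% of all genes did). These were the IL-17 receptor genes Il17ra at 0.53 ± 0.157 (SE) and Il17rc at -0.35 ± 0.127. Their edgeR adjusted p were 0.293 and 0.439, and both had groups without overlap, as did 14.8% of all genes. The inflammasome protease gene Casp1 was at 0.48 ± 0.222 and the NF-kB inhibitor gene Tnfaip3 at 0.23 ± 0.130, with overlapping groups. The ligand genes Il17a and Il17f were too low to test, at 0 to 0.263 CPM in any library.

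Genes that IL-1, IL-6 or IL-17 induce in tissue had a median log2 fold change of -0.11 over 13 tested, with 0 past the edgeR threshold and 3 with an unadjusted p under 0.05, all lower (3.67% of all genes). Ptgs2, the gene of the prostaglandin synthase COX-2, was at 30.8, 30.9 and 35.4 CPM in wild-type and at 11.9, 20.5 and 16.1 CPM in overexpressing libraries, without overlap. Its log2 fold change was -0.999 ± 0.186 (SE), with an adjusted p of 0.120 in edgeR, 0.00554 in the unfiltered fit and 3.53e-05 in DESeq2. The acute-phase gene Saa3 was at -1.30 ± 0.520 and the adhesion gene Icam1 at -0.19 ± 0.0794, with edgeR adjusted p of 0.488 and 0.524. Saa3 was highest in wild-type replicate 1, at 26.2 CPM against 3.92 to 11.7 CPM in the other 5 libraries. The neutrophil adhesion gene Sele, an endothelial selectin, was at 0.93 ± 0.438 (edgeR adjusted p = 0.588).

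Other CXC chemokines included those that attract T cells. Of 9 tested, 0 passed with edgeR and 3 had an unadjusted p under 0.05 (9.44% of all genes did). Cxcl9 and Cxcl10, interferon-induced ligands of CXCR3, had log2 fold changes of 0.89 ± 0.256 and 0.67 ± 0.212 (SE), and Cxcl14, an epithelial chemokine gene, one of -0.48 ± 0.129. All 3 had groups without overlap (14.8% of all genes), with edgeR adjusted p of 0.282, 0.345 and 0.248. DESeq2 called Cxcl9 (adjusted p = 0.0483). Cxcl12, a stromal chemokine gene, was at 0.29 ± 0.148 (edgeR adjusted p = 0.621). The platelet chemokine genes Ppbp and Pf4, which stand between Cxcl5 and Cxcl3, were at 40.2 to 71.1 CPM and 20.2 to 28.1 CPM, with overlapping groups.

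Neutrophil markers, which report the cells that these chemokines attract, had 15 of 15 log2 fold changes above 0 and a median of 0.35, which was 0.019 without overexpressing replicate 3 and 0.53 without overexpressing replicate 2. With edgeR, 0 of 15 passed the threshold and 0 had an unadjusted p under 0.05. The summed level was 1476 to 2033 CPM in wild-type libraries and 2390, 1344 and 2981 CPM in overexpressing replicates 1, 2 and 3, so the lowest of all 6 was an overexpressing library. The markers with the smallest p were Retnlg at 0.54 ± 0.267 (SE), the gelatinase gene Mmp9 at 0.30 ± 0.216, the collagenase gene Mmp8 at 0.35 ± 0.314 and Cxcr2 at 0.28 ± 0.274, with edgeR adjusted p of 0.609 to 0.829. The members of this list share cells and are not independent of each other.

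Other cell types that make or answer these signals were read the same way. Alveolar macrophage markers had a median log2 fold change of -0.27 with 0 of 10 past the edgeR threshold, which became -0.15 when wild-type replicate 1 was left out, -0.17 when overexpressing replicate 3 was and -0.44 when overexpressing replicate 1 was. Car4, which endothelium also expresses, was at -0.35 ± 0.0954 (SE), Fabp5 at -0.23 ± 0.110, Chil3 at -0.47 ± 0.241 and Mrc1 at -0.26 ± 0.133. Monocyte markers had a median of 0.48 with 0 of 8 past the edgeR threshold and 3 of 8 with an unadjusted p under 0.05, all higher (5.77% of all genes). 4 of 8 had groups without overlap (14.8% of all genes): Ly6c2 at 1.01 ± 0.275, Cx3cr1 at 0.95 ± 0.312 and Ccr2 at 0.84 ± 0.281 were higher in every overexpressing library, and Ace at -0.24 ± 0.116 was lower in every one. Ly6c2 passed in the unfiltered edgeR fit (adjusted p = 0.0385) and in DESeq2 (adjusted p = 0.00309). Leaving out replicate 1 of the wild type gave a monocyte median of 1.06, leaving out its replicate 3 gave 0.26 and leaving out overexpressing replicate 1 gave 0.20. The summed level was 1467 to 1850 CPM in wild-type and 1464 to 1808 CPM in overexpressing libraries. Most of it came from Ace, at 1140, 1258 and 1157 CPM against 1106, 882 and 1018 CPM. The sum therefore says little about the other monocyte markers. Endothelial and fibroblast markers had a median of -0.12 with 0 of 10 past the edgeR threshold, and the median ran from -0.22 when wild-type replicate 1 was left out to -0.018 when wild-type replicate 2 was.

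**Figure D4:**
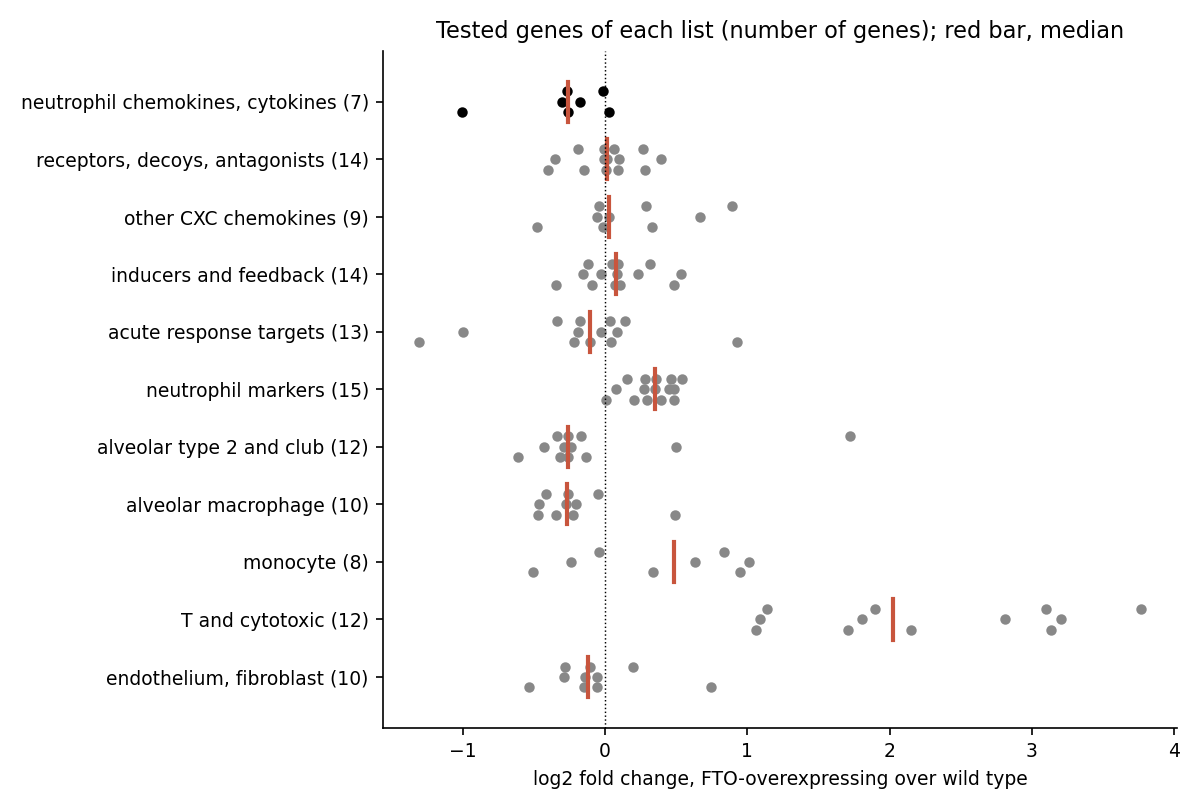
Log2 fold change (FTO-overexpressing over wild type) of each tested gene in the chemokine and cytokine group and in 10 related lists; red bars are medians and numbers in brackets count genes. The T and cytotoxic markers lie farthest from 0 (median 2.02), and the chemokines and cytokines have a median of -0.26.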

How the data were processed

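The deposited table holds expected counts: estimated reads for each gene, partly fractional, with no scaling for library size. The submitters' processing notes name fastp, HISAT2 and StringTie. Versions, genome build, annotation, strand setting and the counting program were not given in the sources used here. Per the labels' protocols, RNA was extracted with TRIzol and libraries were made with a stranded poly(A) kit. Of 57180 rows, 525 had no symbol and took 0.119% to 0.143% of counts; they were tested as genes.

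Values were rounded and fitted in R 4.3.3 with edgeR 4.0.16 (filterByExpr with the group, TMM, quasi-likelihood F-test, group as the only term), with Benjamini-Hochberg adjustment over 16989 genes and a threshold of 0.05. Standard errors come from the log2 fold change and F. limma 3.58.1 and DESeq2 1.42.0 were alternatives, with other scalings and filters, a replicate block and each library left out. The fit was tested on simulated counts. Libraries of 1 group differed far beyond counting noise (chi-square per degree of freedom 27.7 to 48.6), so none was a duplicate. The closest pairs crossed the groups: replicate 1 of both (20.7), and wild-type replicate 3 with overexpressing replicate 2 (26.9). The other pairs between groups were at 34.2 to 46.6. Intervals cover the spread between libraries, and no molecular identifiers were used.

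The genes and lists were chosen with earlier results of these data known, so no p over a list is given. Named genes are the 10, Fto, all receptors, every list gene past the threshold and those with the smallest p up to 4 per list; others are said to have been named after their values were seen. Genes most like Cxcl15, the tested gene with the highest level and the smallest p, had an average log2 CPM of at least 1. Promoter sequences are RefSeq's (GRCm38.p6), 250 bases before to 50 after the start, and 8 of 10 genes matched.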

Additional observations from a re-analysis of the deposited data

How the results depend on the processing

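The count of 0 chemokine and cytokine genes past the threshold held in all 14 alternatives. The number of all genes past it was 16 and became 287 with no filter, 31 without haemoglobin, immunoglobulin and mitochondrial-genome genes, 5 in limma-voom and 417 in DESeq2, and it ran from 1 to 49 over the fits without 1 library. With the replicate number as a block it was 2, and 0 of the 7 tested genes passed. Cd8a and Cd8b1 lost their calls there (adjusted p = 0.121 for both). The numbers were not taken to pair the samples: same-numbered libraries correlated in their deviations at 0.108, -0.308 and -0.308, and only replicate 1 of the wild type correlated best with its own number. Under the block Il1b was at 0.095, and in limma-voom at 0.15.

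Directions of single genes rested on single libraries. Over the fits without 1 library the log2 fold change ran from -0.42 to 0.11 for Cxcl1, from -1.38 to 0.18 for Cxcl2, from -0.93 to 0.013 for Cxcl5, from -0.19 to 0.12 for Il1a, from -0.73 to 0.81 for Il1b and from -0.13 to 0.19 for Csf2. It ran from -0.011 (without overexpressing replicate 1) to 0.53 for Cxcr2 and from -0.048 (without overexpressing replicate 3) to 0.63 for Mmp8. Cx3cr1 passed without wild-type replicate 1 (1.46, edgeR adjusted p = 0.0340). The median of the acute response targets was -0.11 over 13 genes and ran from -0.16 to -0.051 over the fits without 1 library. It was -0.17 with no filter and -0.18 in DESeq2, both over 15 genes, since the low-count genes Saa1 and Saa2 then entered. That of the other CXC chemokines was 0.026 and ran from -0.052 to 0.22. The cause was not tested. Cxcl3, Il6 and Csf3 had too few counts for the main test, and the spread between libraries limits Il1b and Cxcl2.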
